A study of Mus musculus with 2 samples.

Results

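The tropomyosin, calponin and transgelin genes encode small proteins that bind along the sides of actin filaments, and each family pairs members typical of smooth muscle with relatives made in many cell types. They were measured in ureters, which move urine to the bladder by contraction of a smooth muscle coat, of mouse embryos labelled cDKO and of control embryos. The members were taken by symbol: Tpm1, Tpm2, Tpm3, Tpm4, Cnn1, Cnn2, Cnn3, Tagln, Tagln2 and Tagln3. They are 10 genes of 31870 on the array, read by 19 of 39429 probes with 1 spot each. All 10 genes, through 18 of the 19 probes, passed the filter on dim signals, as did 23424 genes and 29283 probes in all.

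Total RNA of dissected ureters (strain NMRI, stage E18.5) was hybridised to 2 Agilent 2-colour arrays, each holding 1 cDKO and 1 control RNA. The cDKO embryos carried one Cre allele at Tbx18, Tbx18(cre/+), with Tbx2(fl/fl) and Tbx3(fl/fl), so that recombination is driven by a gene of the ureteric mesenchyme. Controls were Tbx18(+/+), with Tbx2(fl/?) and Tbx3(fl/?), that is at least one floxed allele of each and no Cre. Replicate 1 held RNA labelled male with the cDKO RNA in red (AlexaFluor647). Replicate 2 held RNA labelled female with the cDKO RNA in green (AlexaFluor555). Sex and dye orientation change together between the replicates and cannot be told apart. The number of embryos behind an RNA is not in the labels, so p-values measure only the spread between these arrays, which may be technical. The comparison asks which transcripts differ between ureters of the cDKO genotype and of controls, which differ in the Tbx18 allele and Cre as well as in the floxed genes.

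The targeted genes were called higher, not lower, in the cDKO RNA. The mean log2 ratio was 0.74 for Tbx2 (limma adjusted p = 0.0277), with 1.04 (male array) and 0.44 (female array). It was 0.66 for Tbx3 (limma adjusted p = 0.0308), and Tbx18 was at 0.81. Which exons recombination removes is not in the labels, so these probes do not check the genotype, and each direction is given for the RNA as labelled. The Y-linked genes Ddx3y and Eif2s3y were not well above background in the female control RNA but were so in the female cDKO RNA. Their signals there were 12.6% and 9.52% of those in the male cDKO RNA. The sex label of the female cDKO RNA is therefore in doubt, and male and female here name the arrays as labelled. Values of the members are therefore given for each array, and those of other genes as means over both, with each array where leaving one out moves the mean by over 1.5 times. Between 72.1% and 81.6% of gene spots in a channel passed the background flag, and no spot of a member was saturated. Precision is limited by there being 2 arrays.

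In smooth muscle, tropomyosin lies in the groove of the actin filament as a coiled-coil dimer and steadies it. Calponin binds actin, tropomyosin and calmodulin and slows the myosin ATPase, and transgelin, also known as SM22, is a short calponin relative that bundles actin filaments. Tagln and Cnn1 are standard markers of differentiated smooth muscle, and serum response factor with its cofactor myocardin drives many genes of this kind through CArG boxes.

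Tagln, Cnn1, Tpm2 and Tpm1, the smooth-muscle members, were all lower in the cDKO RNA, by 6.71-fold, 4.55-fold, 4.68-fold and 2.04-fold. None of their 5 broadly expressed relatives, Tagln2, Cnn2, Cnn3, Tpm3 and Tpm4, was called in either direction, and neither was Tagln3, the transgelin known from neurons. A gene was called at a Benjamini-Hochberg adjusted p under 0.05 in limma's moderated test of the mean log2 ratio against 0, adjusted over all probes. Over all 23424 genes tested, 2.25% were called lower, 2.17% higher and 4.43% in either direction, against 4 of 4 lower among the smooth-muscle members and 0 of 5 among the relatives, of which 1, Tpm3, had an unadjusted limma p under 0.05. At least 2-fold lower on both arrays, a rule with no test, held for Tagln, Cnn1 and Tpm2 and for 0.726% of all genes. By probe, 7 of the 18 kept member probes were called lower, against 2.26% of all kept probes. These 7 belong to the 4 smooth-muscle members and include a pair of overlapping Tpm1 probes, so they are not separate observations. From the values in the authors' deposited table, limma called none of the 4 (adjusted p between 0.117 and 0.346), though all 4 were lower. In bulk RNA, fewer smooth muscle cells and less RNA of these genes per cell cannot be told apart.

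The sequences of 6 probes are shown. They include both Tpm2 probes, which agree, and the Tpm1 probes at either end of the measured stretch. The rest are the Tagln3 probe and the dimmer Tagln2 probe, which does not represent its gene here. These transgelin probes read a like stretch of both paralogs. Probe letters are those of the scanner files, 5′ to 3′, with mm9 coordinates; exons are not assigned here. In the Tpm1 probe at the 3′ side the capitals mark the TGA it ends with. In the transgelin probes the capitals mark the bases that are the same in both when they are laid against each other without gaps.
Tpm2, chr4:43532262-43532321, minus strand: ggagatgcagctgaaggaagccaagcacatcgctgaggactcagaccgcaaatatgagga
Tpm2, chr4:43531276-43531335, minus strand: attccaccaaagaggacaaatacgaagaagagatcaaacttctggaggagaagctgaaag
Tpm1, chr9:66871166-66871225, minus strand: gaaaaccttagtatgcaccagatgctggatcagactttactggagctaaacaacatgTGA
Tpm1, chr9:66880274-66880333, minus strand: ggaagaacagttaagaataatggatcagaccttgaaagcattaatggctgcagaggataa
Tagln2, chr1:174436738-174436797, plus strand: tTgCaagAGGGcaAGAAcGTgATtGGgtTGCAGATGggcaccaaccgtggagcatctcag
Tagln3, chr16:45711747-45711806, minus strand: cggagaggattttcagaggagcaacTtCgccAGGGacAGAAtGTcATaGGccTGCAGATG

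Tagln, the transgelin of smooth muscle, had the lowest ratio of the 10 genes and ranked 20 from the lowest among all 23424 genes. Its deposited processed signal was 18780 in the cDKO and 125100 in the control RNA of the male array, and 10620 and 71110 on the female array. Both cDKO RNAs lay below both controls, and after normalization the cDKO RNA held 15.2% and 14.6% of the control level. The share of all genes separated in this way was not counted, so separation or overlap here and below is a description, not a test. The log2 ratio was -2.75 ± 0.037 (SD, n = 2; limma adjusted p = 4.68e-08), with -2.72 (male array) and -2.77 (female array). Its single probe lies at chromosome 9, 45738097 to 45738156 (mm9, minus strand).

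**Figure D1:**
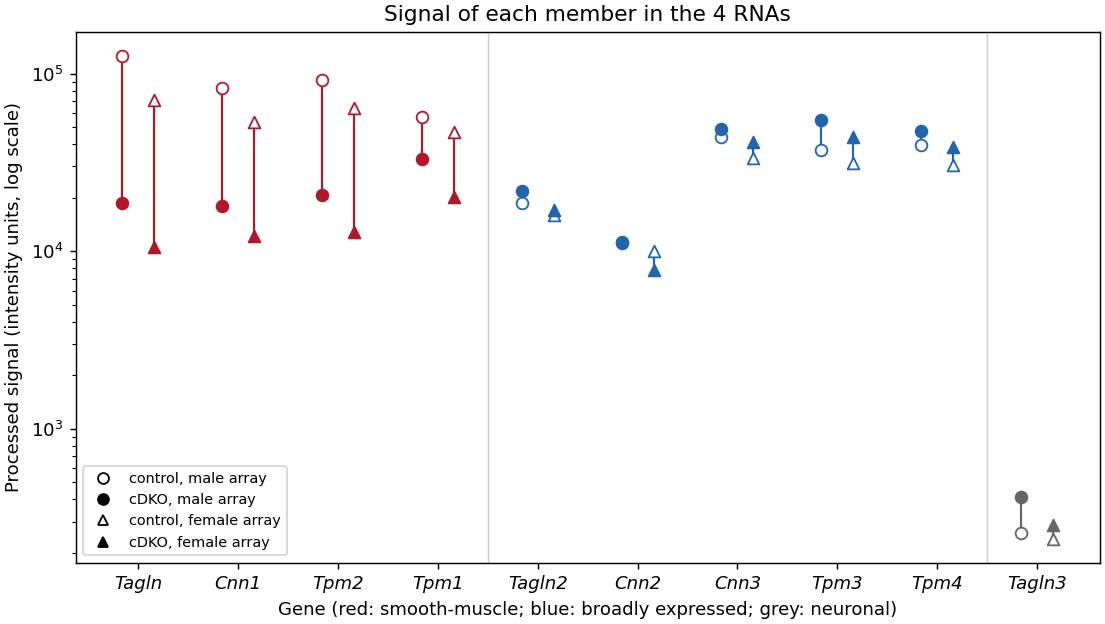
Processed signal (log scale, arbitrary intensity units) of the probe that represents each member, in the control (open) and cDKO (filled) RNA of the male (circles) and female (triangles) array. For Tagln, Cnn1, Tpm2 and Tpm1 both cDKO RNAs lie below both controls, as from 18780 and 10620 against 125100 and 71110 for Tagln. The share of all genes separated in this way was not counted. Heights of different genes cannot be compared, since each probe has its own brightness.

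Tagln2, the transgelin of most cell types, did not pass the test. Signals of its brighter probe were 21890 and 16990 in the cDKO RNA and 18670 and 15940 in the control RNA, so the groups overlapped. The log2 ratio was 0.14 ± 0.024 (SD, n = 2; limma adjusted p = 0.786), and its 95% interval ran from -0.21 to 0.49. The probe printed above gave 0.44 and 0.0084 on the male and female array. Tagln3 had signals of 412.7 and 287.6 in the cDKO RNA and 257.5 and 240.3 in the control RNA, with both cDKO RNAs above both controls. Its log2 ratio of 0.42 ± 0.27 (SD, n = 2; limma adjusted p = 0.23) was not called. The transgelin probes printed above share 24 of 36 bases where they overlap, and cross-hybridisation between the paralogs was not tested. The log2 ratio of Tagln minus that of Tagln2 was -2.88 and -2.90 on the male and female array.

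Cnn1, the calponin of differentiated smooth muscle, had nearly the same ratio on both arrays. Its signals were 18000 and 12120 in the cDKO RNA and 82670 and 53350 in the control RNA, without overlap. The log2 ratio was -2.19 ± 0.0045 (SD, n = 2; limma adjusted p = 4.25e-07), and the cDKO RNA held 21.9% and 22.0% of the control level. The SD of 2 values that happen to be close understates the error, and the interval from limma, which borrows variance from all probes, ran from -2.53 to -1.84. The probe lies at chromosome 9, 21913058 to 21913117 (mm9, plus strand).

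Cnn2 and Cnn3, the broadly expressed calponins, were not called. Cnn2 signals at the brighter probe were 11140 and 7834 in the cDKO and 11300 and 10010 in the control RNA, with overlap, and the ratio was 0.062 and -0.31 on the male and female array. It was thus of opposite sign on the arrays, as for 40.3% of all genes. The mean was -0.12 ± 0.26 (SD, n = 2; limma adjusted p = 0.834; 95% interval -0.48 to 0.24), and it turned to 0.040 under median centring. Cnn3 signals were 48530 and 41090 in the cDKO and 44160 and 33550 in the control RNA, overlapping, with a ratio of 0.19 ± 0.020 (SD, n = 2; limma adjusted p = 0.662; 95% interval -0.15 to 0.54). The second probes of Cnn2 and Cnn3 gave mean ratios of -0.29 and 0.15, also not called. The log2 ratio of Cnn1 minus that of Cnn2 was -2.25 and -1.87 on the male and female array, and minus that of Cnn3 it was -2.37 and -2.39.

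**Figure D2:**
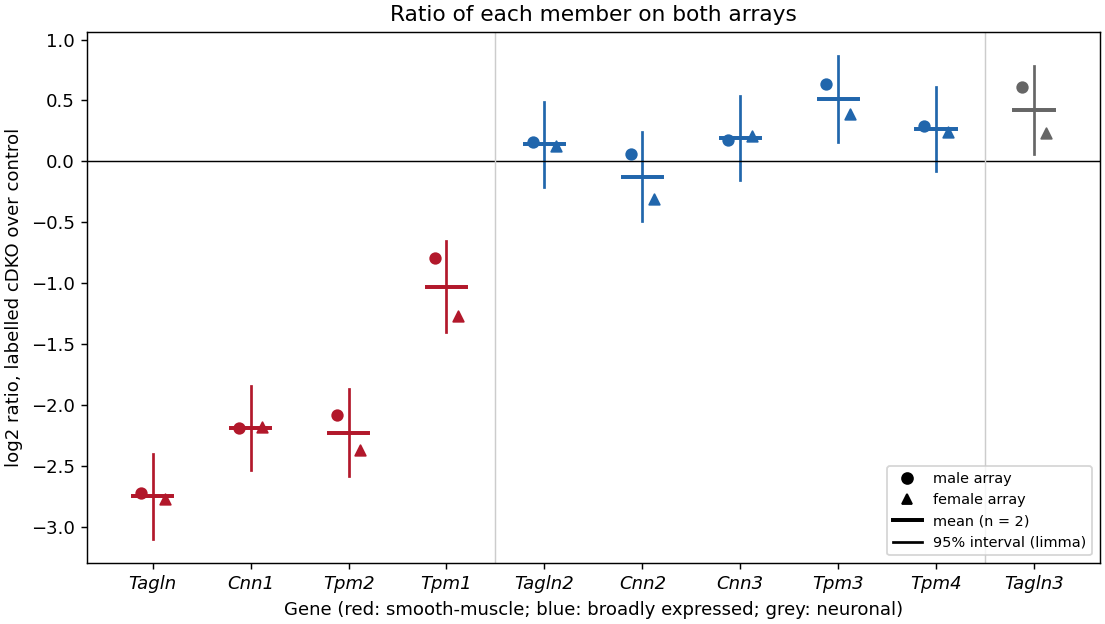
Log2 ratio of labelled cDKO over control for the probe that represents each member: male array (circle), female array (triangle), mean of both (thick bar) and 95% interval from limma (thin line). The smooth-muscle members lie between -2.75 for Tagln and -1.03 for Tpm1, and the relatives between -0.12 for Cnn2 and 0.51 for Tpm3.

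Tpm2, the beta tropomyosin of muscle, fell at both of its probes. At the brighter probe the signals were 20830 and 12750 in the cDKO RNA against 91680 and 63710 in the control RNA, without overlap. The log2 ratio was -2.22 ± 0.20 (SD, n = 2; limma adjusted p = 4.63e-07), with -2.08 (male array) and -2.37 (female array). The other probe read a separate stretch of the transcript and gave -2.20 ± 0.25 (SD, n = 2; limma adjusted p = 5.94e-07). The means of the probes differed by 0.024 log2 units, less than the SD at either probe.

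Tpm3 and Tpm4, the tropomyosins of most cell types, were not called. Tpm3 signals were 54780 and 44240 in the cDKO and 37210 and 31330 in the control RNA, with both cDKO RNAs above both controls. Its ratio of 0.51 ± 0.17 (SD, n = 2; limma adjusted p = 0.118) had a 95% interval from 0.16 to 0.86, and the probe was called higher with an intensity trend in the variance (adjusted p = 0.025). The second Tpm3 probe, at chromosome 3, 89877669 to 89877728 (mm9), was not well above background in any of the 4 RNAs, so the transcripts it reads have no ratio here. Tpm4 signals were 47500 and 38390 in the cDKO and 39380 and 30700 in the control RNA, which overlapped, with a ratio of 0.27 ± 0.037 (SD, n = 2; limma adjusted p = 0.484). The log2 ratio of Tpm2 minus that of Tpm3 was -2.71 and -2.75 on the male and female array, and minus that of Tpm4 it was -2.37 and -2.61.

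Tpm1, the alpha tropomyosin, is spliced into many isoforms of muscle and non-muscle cells, and its 5 probes did not give one ratio. The brightest, which represents the gene, reads the stretch that ends in TGA above and is annotated to transcript variant 2. Its signals were 33110 and 20260 in the cDKO and 57260 and 46770 in the control RNA, without overlap, and the log2 ratio was -1.03 ± 0.34 (SD, n = 2; limma adjusted p = 0.00205), with -0.79 (male array) and -1.27 (female array). Limma did not call it from the processed signals (-0.999, adjusted p = 0.114) or under median centring (-0.99, adjusted p = 0.176).

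A pair of Tpm1 probes of transcript variant 1, 4.48 and 4.49 kb downstream of the most upstream probe, overlap in 46 bases and count as one measurement. The nearer gave -1.07 ± 0.11 (SD, n = 2; limma adjusted p = 0.000912) and the farther -1.35 ± 0.14 (SD, n = 2; limma adjusted p = 0.000103). From the processed signals the farther was called (limma adjusted p = 0.036) and the nearer was not (limma adjusted p = 0.0654). Under median centring the same held, with limma adjusted p = 0.0388 and 0.312. The probe of transcript variant 9, at 8.14 kb, was at -0.41 ± 0.029 and was not called (limma adjusted p = 0.222).

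The most upstream Tpm1 probe, annotated to transcript variant 5, was not lower. Its signals were 6145 and 4572 in the cDKO and 4723 and 4188 in the control RNA, which overlapped, and the ratio was 0.27 ± 0.20 (SD, n = 2; limma adjusted p = 0.492). It stood above the brightest Tpm1 probe by 1.196 and 1.39 log2 units on the male and female array. The distance between the highest and the lowest Tpm1 probe, 1.61 log2 units, was reached or passed by 0.198% of the 4539 genes with at least 2 kept probes, whose median distance was 0.10; genes with more probes have more chance of a wide distance. The upstream probe is listed for 3 RefSeq transcripts, of which it shares 1 with the brightest probe and 1 with each probe of the overlapping pair, so these probes do not each stand for one isoform. The exact test over 2 arrays cannot go below a two-sided p of 0.5, so the difference between the probes could not be tested by permutation.

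**Figure D3:**
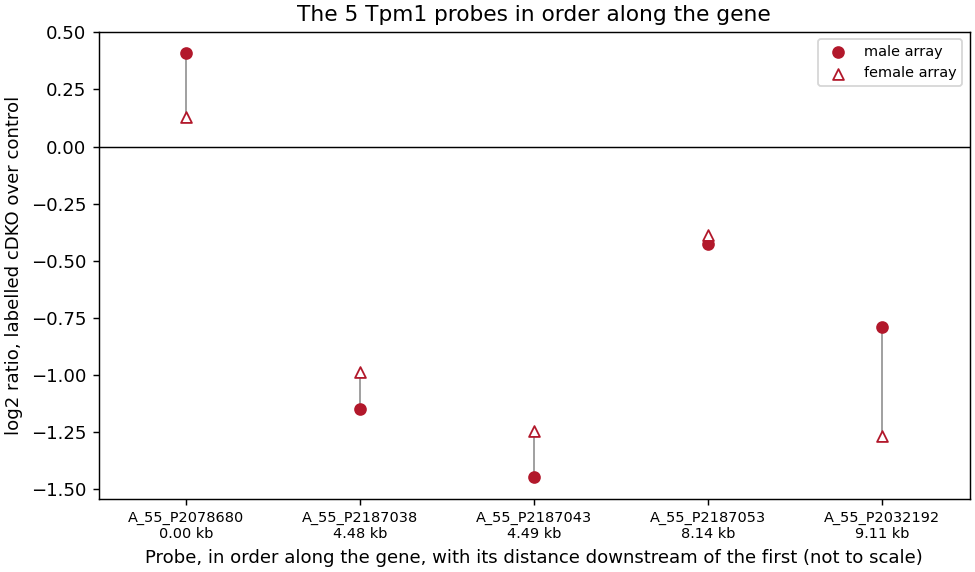
Log2 ratio of labelled cDKO over control at the 5 Tpm1 probes, in order along the gene on the male (filled circles) and female (open triangles) array, with grey lines joining both arrays of a probe. The most upstream probe lies above 0 on both arrays, at 0.41 and 0.13, and the others below 0 on both.

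Across the families the median log2 ratio of the smooth-muscle members was -2.14 and -2.28 on the male and female array, and that of the broadly expressed relatives was 0.18 and 0.21. The difference of -2.40 ± 0.12 (SD, n = 2) is a 5.27-fold gap and exceeded its spread between arrays, but with 2 arrays the exact sign permutation test has a smallest two-sided p of 0.5. The median over all genes tested was 0.0045. The 7 differences between a smooth-muscle member and a relative of its family, which reuse the same 4 members and are not separate observations, were below 0 on both arrays, from -2.89 ± 0.014 for Tagln against Tagln2 to -1.29 ± 0.30 for Tpm1 against Tpm4. Summed over the members' representing probes, the processed signal of the smooth-muscle genes in the cDKO RNA was 25.4% and 23.7% of control on the male and female array, and that of the relatives 122% on both. The sums are weighted by probe brightness and describe the arrays, not amounts of transcript.

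The other genes of the contractile apparatus fell in part. Of 16 genes of the smooth-muscle thin filament and its anchors, 11 were lower and 0 higher, with a median log2 ratio of -0.77. They include Synpo2, an actin-binding protein of muscle, at -4.45, Ldb3, a Z-disc protein, at -2.97, Actg2, the enteric smooth-muscle actin, at -2.73 and Acta2, the smooth-muscle alpha actin, at -2.65. Among 10 genes of the thick filament and its regulation, 5 were lower and 1, Myh9, the non-muscle myosin heavy chain named after its value was seen, was higher at 0.79. The lower ones include Myh11, the smooth-muscle myosin heavy chain, at -2.64, Myl9, a regulatory light chain, at -1.99, Mylk, the light chain kinase, at -1.92 and Ppp1r12a, the targeting subunit of the light chain phosphatase, at -1.79. Over the alternative settings, Synpo2 ranged from -4.56 to -2.86 and Ldb3 from -3.17 to -1.85, called lower in each but the deposited value table.

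A further list held 23 measured genes for actin regulators, most but not all broadly expressed, as it takes in Tmod4 and Lmod3. Of these limma called 2 lower, a larger share than the 2.25% of all genes, and 0 higher. The share is thus not one of broadly expressed genes alone. At an unadjusted p under 0.05 there were 5 in either direction, and the median log2 ratio was 0.088. The lower ones were Tmod1, a tropomodulin that caps the slow-growing end of filaments coated with tropomyosin, at -2.57, and Dstn, the actin-severing protein destrin, at -1.21, whose call was lost with the processed signals. Of 9 genes around serum response factor 3 were lower and 0 higher, with a median of -0.067. They were Myocd, the cofactor myocardin, at -1.53, Fhl2 at -1.24 and Fhl1 at -0.77, of which Fhl1 was not called from the processed signals, and neither Fhl1 nor Fhl2 was called under median centring. Srf itself, named after its value was seen, had ratios of 0.27 (male array) and -0.39 (female array) and was not called.

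**Figure D4:**
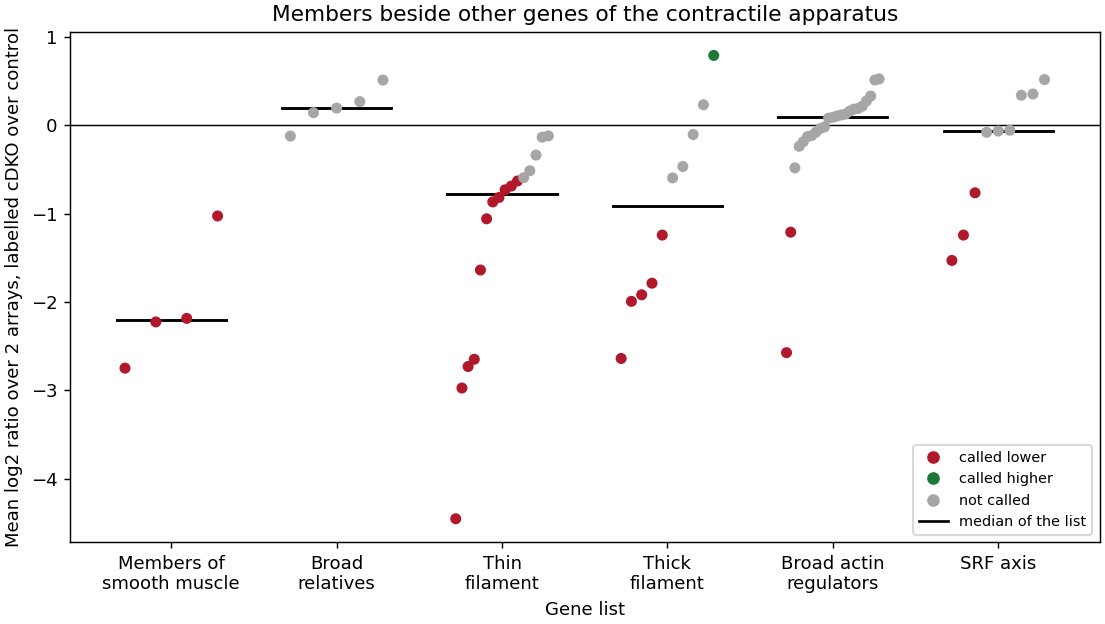
Mean log2 ratio over both arrays of each measured gene (points; red called lower, green called higher, grey not called) in the smooth-muscle members, their broad relatives and 4 lists of other genes, with the median of each list (line). The smooth-muscle members centre on -2.21 and the relatives on 0.19, while the other lists hold both called and uncalled genes.

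The genes nearest to each called member were taken by distance over both per-array log2 ratios, so their ratios are like those of the member by choice. Nearest to Tagln were Pcp4l1, at -2.76 on average, Sntg2, a syntrophin, at -2.78 and Actg2. Fbxl22, an F-box protein, at -2.21 and Synm, the intermediate filament protein synemin, at -2.25 were nearest to both Cnn1 and Tpm2, followed by Akap5, a kinase anchor, at -2.30 for Cnn1 and Plin4, a perilipin, at -2.31 for Tpm2. For Tpm1 they were Casz1 at -0.99, Ren1, renin, at -0.996 and Tppp at -1.02, none of them called from the processed signals or under median centring. With only 2 arrays this likeness is one of size and sign.

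Promoters are shown for one pair of relatives, Cnn1 and Cnn2, as the CArG box was found in a calponin that was not called and not in the one that fell. RefSeq's table on GRCm38.p6 held 9 of the 10 members, all but Tagln, and windows from 250 bases before to 50 after the start of a gene. The CArG box, searched on both strands by its strict consensus, was present in 1 of the 9 genes, Cnn2, and in 1.63% of all 32851 windows. It lies 56 to 47 bases before the start of Cnn2 and is in capitals in the 250 bases before the start printed here. The core of a T-box binding site, AGGTGTGA on either strand, was in 0 of the 9 genes and 1.28% of windows, and the MCAT element CATTCC on either strand in 2 of the 9, Tpm1 and Tagln2, and 14.7% of windows. Only these windows were searched, so a motif not found here may lie elsewhere in a gene. These letters are a description of the windows and say nothing of binding.
Cnn1, chr9:22099003-22099252, plus strand: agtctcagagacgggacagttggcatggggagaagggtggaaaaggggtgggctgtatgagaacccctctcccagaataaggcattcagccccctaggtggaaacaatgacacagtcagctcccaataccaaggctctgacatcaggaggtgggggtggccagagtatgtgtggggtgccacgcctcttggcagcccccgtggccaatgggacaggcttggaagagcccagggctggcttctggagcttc
Cnn2, chr10:79988350-79988599, plus strand: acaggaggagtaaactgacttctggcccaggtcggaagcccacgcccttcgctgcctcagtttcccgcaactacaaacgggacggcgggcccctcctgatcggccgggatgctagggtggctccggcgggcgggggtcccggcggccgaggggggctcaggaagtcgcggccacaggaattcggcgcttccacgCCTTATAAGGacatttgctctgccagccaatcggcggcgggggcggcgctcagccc

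Markers of fibroblasts, kidney and endothelium were higher in part, opposite in direction to the smooth-muscle members, and their part in the result was not tested. Of 11 fibroblast markers 7 were higher and 0 lower, and their summed signal ran from 539626 to 632143 in the cDKO RNA against 295721 to 346400 in the control RNA. The called markers include Col1a1, Col1a2 and Fbln2, matrix genes, at 1.27, 1.22 and 1.03, of which Col1a1 had 1.87 (male array) and 0.67 (female array). Kidney markers were higher for 7 of 11 measured genes, with Lhx1 at 2.06, Six2 at 1.86 and Cdh16 at 2.45, the last from 3.52 (male array) and 1.37 (female array); their summed signal was 253% and 111% of control on the male and female array. Over the alternative settings Lhx1 ranged from 0.70 to 3.53 and Plvap, below, from 0.52 to 1.17. Endothelial markers were higher for 2 of 11 genes, Plvap at 0.97 and Cdh5 at 0.68 (0.94 male, 0.42 female), and their summed signal ran from 46216 to 63095 in cDKO and from 38404 to 47284 in control RNA. Limma called 0 of 13 urothelium markers (5 at an unadjusted p under 0.05), with Krt5 at 0.58 and Cdh1 at 0.46 (0.68 male, 0.24 female). All 13 passed the filter on dim signals, as did all 16 thin filament genes.

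Skeletal muscle also makes Tpm1, Tpm2 and Tpm3, so its markers were set beside them. Of 14 markers, Myh1, Myh2, Myf5 and Pax7 were not well above background in any RNA, and 3 of 9 measured were lower, Acta1 at -2.65, Tnnt3 at -1.14 and Myh8 at -0.74. The summed signal of the list was 7035 to 8952 in the cDKO and 16970 to 20895 in the control RNA. The median log2 ratio of the 9 measured was -0.19, and of the 6 not called Tnni2 was at -0.30 and Mylpf at -0.19. Ratios on the male and female array were of opposite sign for Myod1 (0.17 and -0.15), Mb (0.25 and -0.10) and Myl1 (-0.27 and 1.26). Myh3 had 0.14 (male array) and 0.67 (female array). Their means were 0.011 for Myod1, 0.075 for Mb, 0.49 for Myl1 and 0.41 for Myh3. Mural cells of vessels also make Tagln and Cnn1: of their 9 markers 1, Higd1b, was lower at -0.84, and the summed signal was 102% and 98.7% of control on the male and female array. Neuronal markers, given beside Tagln3, had 1 of 13 lower, Nefl at -0.67 (-0.42 male, -0.92 female), and 0 higher, and their summed signal was 98.0% and 83.5% of control. Of 5 measured glial genes Fabp7 was higher at 0.63, and of 5 erythroid genes Slc4a1 at 0.62. All 5 erythroid genes were above 0 on both arrays, with a median log2 ratio of 0.50. Their summed signal was 162% and 149% of control on the male and female array. Limma called 0 of 9 leukocyte genes (1 at an unadjusted p under 0.05), with Lyz2 at -0.54 and Fcgr1 at 0.30 (0.20 male, 0.39 female). Not called from the processed signals were Tnnt3, Myh8, Higd1b, Col1a1, Fbln2, Plvap, Cdh5, Nefl, Fabp7, Cdh16 and Slc4a1. Median centring also lost the calls of Tnnt3, Myh8, Higd1b, Fbln2, Cdh5, Nefl, Fabp7 and Slc4a1. Cdh5, Nefl, Fabp7 and Slc4a1 were not called with a normexp offset of 0 or without the filter either. Other calls lost were Col1a1 and Cdh16 with limma's robust variance model, Myh8 and Plvap with the mean of a gene's probes, and Slc4a1 with an intensity trend.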

How the data were processed

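Per the file headers, Agilent Feature Extraction 10.7.3.1 measured each spot's mean and background intensity in both channels. Per the file headers it also made the processed signal, an intensity after background subtraction and dye normalization. Deposited flags (other values) mark outlier, saturated and above-background spots. The values in the authors' own deposited table are a score with no stated scale. Where both signals exceeded 200 it equalled the signed fold of processed signals, cDKO over control, within 0.001 log2 for 100% of values on both arrays, and its columns' median was 1.

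Of 44397 spots, 43020 were gene spots. Background was corrected by normexp (offset 50) on the mean intensities, and each array was loess-normalized with limma 3.58.1 in R 4.3.3, without the 272 and 226 outlier spots. Ratios were turned to cDKO over control by the labelled dyes. Probes well above background in cDKO, or in control, on both arrays were kept, and a gene was its brightest kept probe. The mean of both arrays was tested with lmFit and eBayes (prior of 13.8 degrees of freedom against 1 residual), Benjamini-Hochberg over all kept probes. Accessions gave symbols through RefSeq for 26412 probes, and the file for 13017.

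The fit was tested on 4 simulated sets of data. Of 100 probes changed 2-fold, 97 to 100 were recovered, and of 100 changed 4-fold, all 100 were. False ones made up 13% to 16% of calls, more than the adjusted p threshold for a call allows. The calls given here may therefore hold more false ones than that threshold states. Alternatives changed the background correction, normalization, filter, probe rule, variance model, input values and arrays used. Members and lists were chosen with earlier results of these data known. Genes named beyond the members are up to 4 called genes of each contractile list and up to 3 of each marker list with the largest ratio and one direction on both arrays (with none called, the 2 largest), and the 3 genes nearest to each called member.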

Additional observations from a re-analysis of the deposited data

Results flagged for a closer look

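The log2 ratio of Cnn2 was 0.062 for the male pair and -0.31 for the female pair, values of opposite sign. The other Cnn2 probe was below 0 on both arrays, at -0.15 and -0.44, and the processed signal of the first was lower in the cDKO RNA on both arrays, so the male value does not show a rise. The difference was not tested, since there is 1 array per sex and sex runs with dye orientation, and 40.3% of all genes had ratios of opposite sign on the arrays.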

How the results depend on the processing

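The 4 smooth-muscle members stayed lower in every alternative run, and their calls held in all those with a test but 3. From the values the authors deposited, limma called 0 members lower or higher, and 0 of all genes. For the 4 smooth-muscle members its adjusted p lay between 0.117 for Tagln and 0.346 for Tpm1. At an unadjusted limma p under 0.05 there were 5 members and 2432 of 23424 genes. Tpm1 was not called from the processed signals (-0.999) or after median centring (-0.99). With an intensity trend 1 member, Tpm3, was called higher. Cnn2 turned to 0.040 under median centring. The cause of these changes was not tested. Of 110 values of members under alternatives, 6 lost a call, 1 gained one and 1, Cnn2 under median centring, reversed. A further 1, Cnn2 on the male array alone, had the opposite sign to its mean, by less than its SD.

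The median of the relatives was 0.26 from processed signals and from the deposited table, 0.23 after median centring, 0.25 with the mean of a gene's probes and 0.17 with Tpm1 counted among them. Under median centring Tagln minus Tagln2 was -2.92, Cnn1 minus Cnn3 -2.33 and Tpm2 minus Tpm3 -2.67. With the mean of a gene's probes Tagln minus Tagln2 was -2.93, Cnn1 minus Cnn3 -2.35, Tpm1 minus Tpm3 -1.22 and Tpm1 minus Tpm4 -0.98, the last 2 as the mean takes in Tpm1 probes with ratios nearer to 0 or above it. Over all genes, 528 were called lower and 509 higher, against 210 and 134 from processed signals, 157 and 163 after median centring, and 663 and 933 with an intensity trend. Each array alone gave values with no test: the smooth-muscle median ranged from -2.28 to -2.14 and its distance from the relatives from -2.48 to -2.31.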
